A study of Homo sapiens with 8 samples.

Results

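The mRNA of 10 genes of the clathrin coat was followed in IGF2R-knockdown cervical cancer cells: the AP-2 adaptor subunits AP2A1, AP2A2, AP2B1, AP2M1 and AP2S1, the clathrin chains CLTA, CLTB and CLTC, and the coat partners PICALM and EPN1. They were chosen by name, with earlier results of these data known. Every probe set (a group of array probes read out as 1 value) annotated to 1 of these genes alone was taken. Of their 34 probe sets, 20 reached a signal of 500 on at least 1 of the 8 arrays, among 16517 such probe sets of 54613 in all. These 20 covered 8 of the 10 genes, out of 8961 genes measured.

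The lines were BOKU and SKG-I, both established cervical cancer lines, transfected with an siRNA against IGF2R (siIGF2R) or with a control siRNA (siCtrl) and lysed after 72 h. Both groups of both lines received the same lipid-based transfection, and no untransfected cells were analysed here. Each line gave 1 RNA sample per siRNA, which was hybridised to 2 arrays, so the 8 arrays carried 4 RNA samples and the lines served as the replicates. The sources used here do not name the IGF2R siRNA sequence put on the arrays.

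IGF2R, the siRNA's target, had signals of 641 and 645 on the BOKU siIGF2R arrays, against 7288 and 6711 on the BOKU siCtrl arrays. In SKG-I it had 257 and 295 with siIGF2R and 4120 and 3838 with siCtrl. The labels were thus borne out in both lines. The arrays had median signals of 65.0 to 74.6, and in each line both siIGF2R arrays had a higher median than both siCtrl arrays. Duplicates differed on the log2 scale with an SD of 0.269 to 0.349 over all measured probe sets. Among the 20 coat probe sets, the largest difference between duplicates on the log2 scale was 0.65 in BOKU siIGF2R, 0.56 in BOKU siCtrl, 0.32 in SKG-I siIGF2R and 0.46 in SKG-I siCtrl. The keratins KRT8, KRT18 and KRT19 were measured in both lines, whereas KRT5 did not reach 500 on any array (highest signal 45.9). The epithelial adhesion genes EPCAM and CDH1 averaged 38.5 and 1.02 in BOKU with siIGF2R and 34.4 and 2.64 with siCtrl. In SKG-I, EPCAM averaged 1349 with siIGF2R and 1527 with siCtrl, and CDH1 averaged 636 with siIGF2R and 158 with siCtrl. None of the 3 leukocyte and 3 endothelial markers on the arrays reached 500, whereas 2 of 4 fibroblast markers did (COL1A1 and COL3A1). The summed signal of the 4 fibroblast markers was 1325 to 1637 in BOKU with siIGF2R and 1477 to 1503 with siCtrl, and 5860 to 6005 in SKG-I with siIGF2R and 7734 to 7820 with siCtrl. It overlapped between the siRNAs in BOKU and lay lower with siIGF2R in SKG-I. The summed signal of the 6 epithelial markers was 31390 to 36690 in BOKU with siIGF2R and 41590 to 43760 with siCtrl, and 28280 to 28930 in SKG-I with siIGF2R and 37330 to 37730 with siCtrl. KRT8, KRT18 and KRT19 made up most of this sum. In SKG-I, KRT19 averaged 1954 with siIGF2R and 7123 with siCtrl, while CDH1 lay the other way there. The part of these markers in the results that follow was not tested. In these bulk samples, a smaller share of cells with a transcript and less transcript per cell cannot be told apart.

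AP-2 is the adaptor that gathers cargo receptors at the plasma membrane for clathrin-mediated endocytosis. It consists of a large α subunit (encoded by AP2A1 or AP2A2), a large β2 subunit (AP2B1), a medium μ2 subunit (AP2M1) and a small σ2 subunit (AP2S1). The μ2 and σ2 subunits read sorting signals in the tails of the receptors, and the hinge of β2 binds clathrin. Clathrin itself is built from heavy chains (CLTC), which form the legs of the triskelion, and light chains (CLTA, CLTB). IGF2R, the cation-independent mannose 6-phosphate receptor, carries lysosomal enzymes from the Golgi apparatus and is retrieved from the cell surface through AP-2 and clathrin.

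AP2B1 had the largest change among the 8 measured coat genes, and AP2M1 was the other that passed the test. Of the 20 probe sets, 3 fell with siIGF2R (15%), namely both AP2B1 probe sets and the AP2M1 probe set, by limma with Benjamini-Hochberg adjustment over all 16517 probe sets. Among all probe sets, 2.09% fell. The fall of AP2B1 was known when the genes were chosen, so the 15% is no test of enrichment. None of the 20 rose, against 2.2% of all probe sets. Before adjustment 9 had a lower and 0 a higher signal at a p under 0.05 from limma. Of all 16517 probe sets, 4453 passed that unadjusted limit, in either direction. By genes, 2 of the 8 fell and 6 passed in neither direction, while 211 genes fell and 232 rose among all 8961. Before adjustment 4 of the 8 genes were lower and 0 higher. The median change of the 8 genes, siIGF2R minus siCtrl on the log2 scale and 1 probe set per gene, was −0.60 in BOKU and −0.21 in SKG-I, beside 0.03 and −0.03 over all genes.

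**Figure D1:**
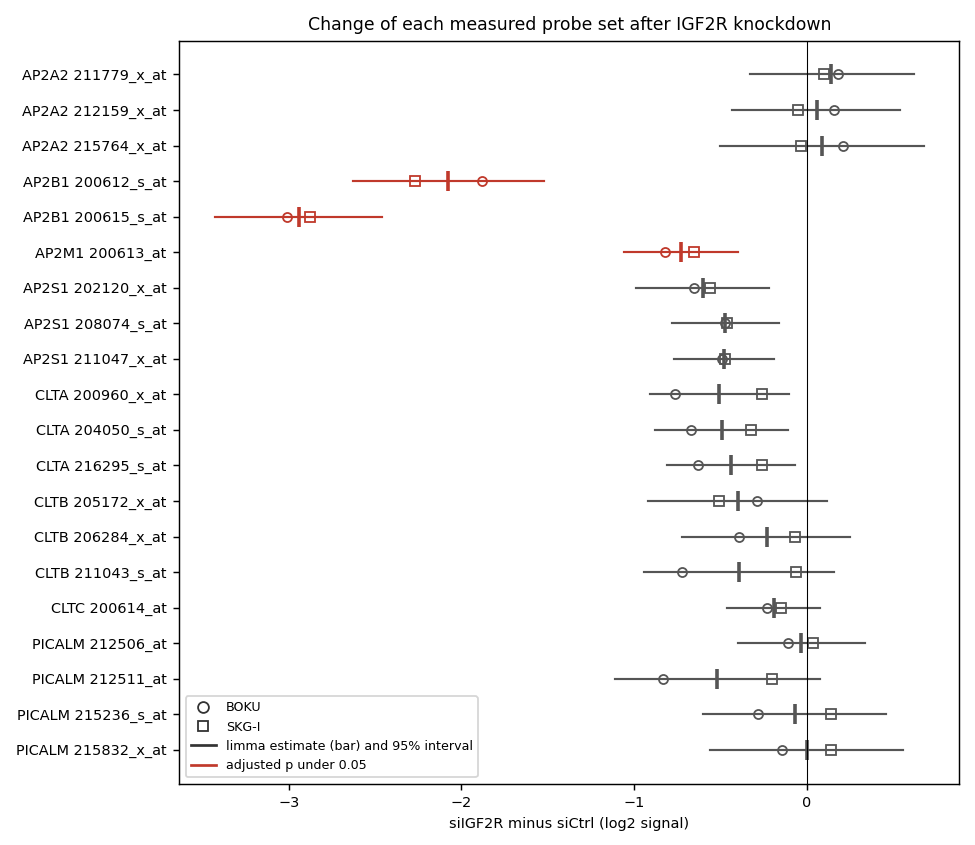
Change of each of the 20 measured probe sets (siIGF2R minus siCtrl, log2 signal), with a circle for BOKU, a square for SKG-I, and a bar and line for the limma estimate over both lines and its 95% interval. The AP2B1 probe sets lie at −2.94 and −2.08, AP2M1 lies at −0.73, and these 3 are drawn in red for an adjusted p under 0.05.

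The start regions of the genes that fell by limma, AP2B1 and AP2M1, are shown, and their part in these changes was not tested. They are the RefSeq windows of 250 bases before to 50 bases after the annotated start on GRCh38.p14, AP2B1 at chr17:35587072-35587371 and AP2M1 at chr3:184174605-184174904, both on the + strand. Capitals mark every match to TGACGTCA (the cyclic AMP response element), CACGTG (the E-box), GGGCGG (the GC box), CCAAT and TATAAA, searched on both strands.
AP2B1: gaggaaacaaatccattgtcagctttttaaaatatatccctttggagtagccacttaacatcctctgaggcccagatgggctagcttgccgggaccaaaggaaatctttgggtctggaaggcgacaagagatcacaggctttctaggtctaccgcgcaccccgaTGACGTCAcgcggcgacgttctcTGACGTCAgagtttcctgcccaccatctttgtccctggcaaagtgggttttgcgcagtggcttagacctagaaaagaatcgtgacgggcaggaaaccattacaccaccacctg
AP2M1: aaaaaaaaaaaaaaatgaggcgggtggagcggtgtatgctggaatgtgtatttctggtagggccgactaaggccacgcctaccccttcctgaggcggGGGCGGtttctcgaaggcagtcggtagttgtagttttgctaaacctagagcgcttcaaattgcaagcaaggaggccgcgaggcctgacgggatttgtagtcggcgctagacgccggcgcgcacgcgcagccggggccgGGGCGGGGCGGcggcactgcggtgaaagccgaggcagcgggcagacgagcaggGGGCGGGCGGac
The AP2B1 window held 2 TGACGTCA, 86 and 63 bases before the start with 15 bases between them, and none of the other motifs. Of 35116 windows in the RefSeq table, 1.85% held TGACGTCA and 21 (0.0598%) held it at least 2 times. The AP2M1 window held 5 GGGCGG, some sharing bases with the next, and no other motif. Of all windows, 45% held GGGCGG and 26.7% held it at least 2 times. The E-box was held by 7.26% of all windows, CCAAT by 34.6% and TATAAA by 11.5%. The 10 genes matched 13 windows, and among the others TGACGTCA occurred only in CLTB, once in each of a pair of windows that overlap. No measured CLTB probe set passed the test (adjusted p values of 0.277 to 0.486 from limma). A match describes the letters and says nothing of binding.

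AP2B1, the β2 subunit, was measured by a pair of probe sets. Probe set 200615_s_at had signals of 803 and 512 on the BOKU siIGF2R arrays, against 5157 and 5184 on the BOKU siCtrl arrays. In SKG-I it had 284 and 356 with siIGF2R and 2236 and 2442 with siCtrl. Every siIGF2R array lay below every siCtrl array of either line, and the signal was 8.06-fold lower in BOKU and 7.35-fold lower in SKG-I. The log2 change was −2.94 (SE 0.20, 95% interval −3.43 to −2.46, 2 lines, adjusted p = 0.0221 from limma). When the 5658 probe sets lower in both lines were ordered by their weaker line, it took place 5.

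The other AP2B1 probe set, 200612_s_at, had 393 and 372 in BOKU with siIGF2R and 1355 and 1467 with siCtrl. In SKG-I it had 384 and 434 with siIGF2R and 2049 and 1900 with siCtrl. Its arrays also separated without overlap, at −1.88 in BOKU and −2.27 in SKG-I, and the estimate was −2.08 (SE 0.22, 95% interval −2.63 to −1.52, adjusted p = 0.0221 from limma). The intervals of the pair overlap between −2.63 and −2.46 only. These 2 were the coat probe sets lowered by 2-fold or more in each line, which 2.28% of all probe sets were. None was raised that much in each, against 3.15% of all. AP2B1 also stands among the changed probe sets that the study lists from these same arrays, so its place here is not independent evidence.

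AP2M1, the μ2 subunit that binds tyrosine-based sorting signals, had signals of 9065 and 9484 in BOKU with siIGF2R, against 15779 and 16923 with siCtrl. In SKG-I the signals were 6403 and 6128 with siIGF2R and 9864 and 9784 with siCtrl. The arrays did not overlap in either line, and the signal was 1.76-fold lower in BOKU and 1.57-fold lower in SKG-I. The log2 change was −0.73 (SE 0.13, 95% interval −1.06 to −0.40, adjusted p = 0.0460 from limma). This call was lost when BOKU siCtrl array 2 (adjusted p = 0.0556) or BOKU siIGF2R array 1 (adjusted p = 0.0628) was left out, and in 7 other alternative settings. In the order by the weaker line AP2M1 took place 971 of 5658, far behind AP2B1.

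AP2S1, the σ2 subunit that binds dileucine signals, was read by 3 probe sets, and in all of them every siIGF2R array lay below every siCtrl array of its line. Probe set 211047_x_at had 11884 and 13578 in BOKU with siIGF2R and 17919 and 17796 with siCtrl. In SKG-I it had 9775 and 9603 with siIGF2R and 13030 and 13798 with siCtrl. Its estimate was −0.48 (95% interval −0.77 to −0.19, adjusted p = 0.0779 from limma). Those of 202120_x_at and 208074_s_at were −0.60 and −0.47 (adjusted p = 0.0839 and 0.0902). None passed the threshold, although all 3 intervals lay below 0 and the changes of the lines were within 0.09 of each other.

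The large α subunit did not pass the test in any probe set. AP2A2 had 3 measured probe sets, all of a kind (suffix _x_at) whose probes may also match other transcripts. The same holds for AP2S1 211047_x_at and 202120_x_at, CLTA 200960_x_at, CLTB 205172_x_at and 206284_x_at, and PICALM 215832_x_at. Probe set 212159_x_at had 1581 and 1691 in BOKU with siIGF2R and 1323 and 1625 with siCtrl, and in SKG-I 1577 and 1622 with siIGF2R and 1603 and 1705 with siCtrl. Its arrays overlapped between the siRNAs in both lines. The estimates of the 3 AP2A2 probe sets were 0.06 to 0.14, the widest interval ran from −0.50 to 0.68, and the adjusted p values were 0.669 to 0.880 from limma.

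AP2A1 did not reach 500 on any array, with a highest signal of 458. Its probe set 234068_s_at had 205 and 161 in BOKU with siIGF2R and 301 and 261 with siCtrl, and in SKG-I 259 and 188 with siIGF2R and 458 and 402 with siCtrl. These arrays did not overlap either, and in a fit without the filter the change was −0.79 (adjusted p = 0.223 from limma). The remaining 3 AP2A1 probe sets were at −0.50, −0.15 and 0.26 in that fit, with adjusted p values of 0.450 to 0.912. Neither α gene thus gave a call.

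**Figure D2:**
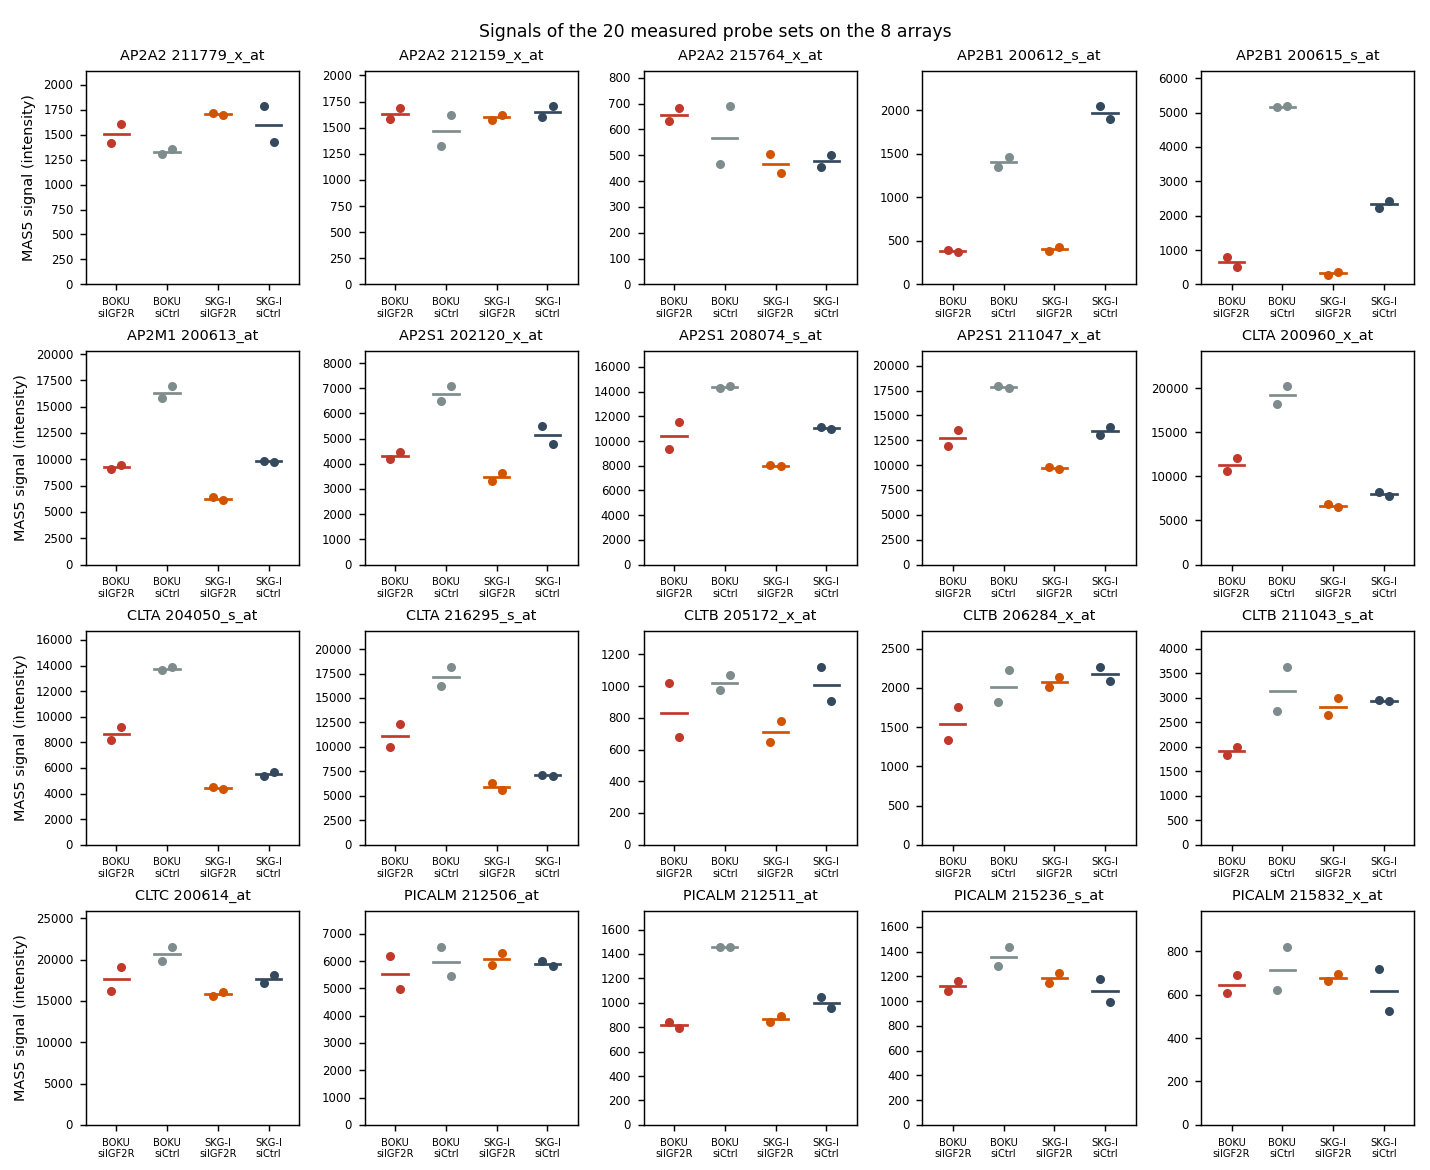
MAS5 signal (linear intensity, axis from 0) of the 20 measured probe sets on the 8 arrays, with siIGF2R left of siCtrl for each line. Points are arrays and the bar is the geometric mean of the 2 arrays of an RNA sample. The AP2B1, AP2M1, AP2S1 and CLTA panels show siIGF2R arrays below siCtrl arrays in both lines, and the AP2A2 panels show them at similar heights.

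The clathrin light chain CLTA had 3 measured probe sets that gave the same picture. Probe set 200960_x_at had 10593 and 12126 in BOKU with siIGF2R, against 18187 and 20181 with siCtrl. In SKG-I it had 6858 and 6468 with siIGF2R and 8186 and 7749 with siCtrl. Arrays did not overlap in either line, but the differences were larger in BOKU (−0.76, and −0.67 and −0.63 for 204050_s_at and 216295_s_at) than in SKG-I (−0.26, −0.32 and −0.26). The estimates over both lines were −0.51, −0.49 and −0.44, with intervals below 0 and adjusted p values of 0.125, 0.120 and 0.139 from limma. With 1 RNA sample per line and siRNA, whether the lines differed in this response could not be tested.

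CLTB, the other light chain, had 3 measured probe sets and a less uniform picture. Probe set 211043_s_at had 1834 and 2002 in BOKU with siIGF2R and 2723 and 3638 with siCtrl, whereas in SKG-I it had 2643 and 2993 with siIGF2R and 2948 and 2932 with siCtrl. The siRNAs separated in BOKU and overlapped in SKG-I. Probe set 206284_x_at did the same, and 205172_x_at separated in SKG-I alone. The estimates were −0.40 to −0.23, all 3 intervals included 0, and the adjusted p values were 0.277 to 0.486 from limma.

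CLTC, the heavy chain, had 16249 and 19118 in BOKU with siIGF2R and 19821 and 21573 with siCtrl, and 15643 and 16118 in SKG-I with siIGF2R and 17158 and 18144 with siCtrl. The arrays did not overlap in either line, yet the estimate was small at −0.19 (95% interval −0.46 to 0.08, adjusted p = 0.312 from limma). A loss of the size seen for AP2B1 lies outside this interval.

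PICALM, which binds AP-2 and clathrin and sorts SNARE proteins into the coat, was read differently by its 4 measured probe sets. The probe set with the highest signal, 212506_at, had 6182 and 4960 in BOKU with siIGF2R and 6528 and 5451 with siCtrl, and 5862 and 6316 in SKG-I with siIGF2R and 6011 and 5813 with siCtrl. Its estimate was −0.03 (95% interval −0.40 to 0.34, adjusted p = 0.910 from limma). Probe set 212511_at had 841 and 796 in BOKU with siIGF2R and 1459 and 1459 with siCtrl, and 844 and 896 in SKG-I with siIGF2R and 1045 and 954 with siCtrl. These arrays separated in both lines, at −0.83 and −0.20, and the estimate of −0.52 did not pass (adjusted p = 0.231). The other probe sets were at −0.07 and 0.00, so 1 of the 4 probe sets stood apart from the other three.

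EPN1, an epsin that helps to bend the membrane, stayed below 500 in both of its probe sets, with a highest signal of 204. Probe set 226667_x_at had 81.7 and 95.8 in BOKU with siIGF2R and 188 and 204 with siCtrl, and 104 and 42.1 in SKG-I with siIGF2R and 114 and 118 with siCtrl. The arrays separated, and without the filter the change was −0.98 (adjusted p = 0.269 from limma). The 14 probe sets under 500 belonged to AP2A1 (4), CLTA (3), CLTC (2), EPN1 (2), AP2A2 (1), CLTB (1) and PICALM (1), and none of them passed in that fit.

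Seen by arrays, 11 of the 20 measured probe sets (55%), from 6 genes, had every siIGF2R array below every siCtrl array in both lines, and 0 had every array above. Over all probe sets the shares were 23.6% below and 26.4% above. Duplicate arrays share 1 RNA, so this separation speaks of the 4 RNA samples and not of further cultures. Signal strength moved with it: when all probe sets were put in 10 classes by mean signal, the highest class held 8 of the 20, and that class had a median change of −0.11 in BOKU and of −0.10 in SKG-I, with 30.3% of it below in both lines. With the median of each class subtracted, the AP2M1 change was −0.63 (adjusted p = 0.0574 from limma), and the AP2B1 changes were −3.02 and −2.12 (adjusted p = 0.0203 for both).

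The lines also differed in some of these genes, by a line coefficient fitted over both siRNAs, while 14 probe sets passed in neither direction. The difference between the lines under each siRNA alone was not tested. Of the 20 probe sets, 6 were higher in BOKU than in SKG-I by limma, against 22.3% of all probe sets, and 0 were lower, against 23.2%. These were all 3 probe sets of CLTA and 1 each of AP2B1, AP2M1 and AP2S1. A share of 6 in 20 is near that of all probe sets.

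With siCtrl alone, CLTA was 2.41-fold, 2.50-fold and 2.43-fold higher in BOKU than in SKG-I by its 3 probe sets, and the line coefficients, BOKU minus SKG-I over both siRNAs, were 1.02, 1.15 and 1.09 (adjusted p = 0.00622, 0.00386 and 0.00405 from limma). AP2M1 was 1.66-fold higher in BOKU siCtrl than in SKG-I siCtrl, with a coefficient of 0.65 (adjusted p = 0.0124, and 0.0677 without a variance trend). The AP2S1 probe set 211047_x_at was 1.33-fold higher, with a coefficient of 0.40 (adjusted p = 0.0375), and the other AP2S1 probe sets were at 0.36 and 0.38 without passing (adjusted p = 0.110 and 0.0547). For AP2S1 this call was lost without BOKU siIGF2R array 2 (adjusted p = 0.0940) and in 4 of the other alternative settings.

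The AP2B1 probe sets disagreed on the order of the lines. By 200615_s_at, BOKU siCtrl was highest, then SKG-I siCtrl, BOKU siIGF2R and SKG-I siIGF2R, with no overlap of arrays between neighbours, and the coefficient was 1.08 (adjusted p = 0.00903 from limma). By 200612_s_at, SKG-I siCtrl lay 1.40-fold above BOKU siCtrl, and the siIGF2R arrays of the lines overlapped. The coefficient there was −0.29 (adjusted p = 0.330). Both probe sets are annotated to AP2B1 alone, and the order of the lines was not settled for this gene.

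**Figure D3:**
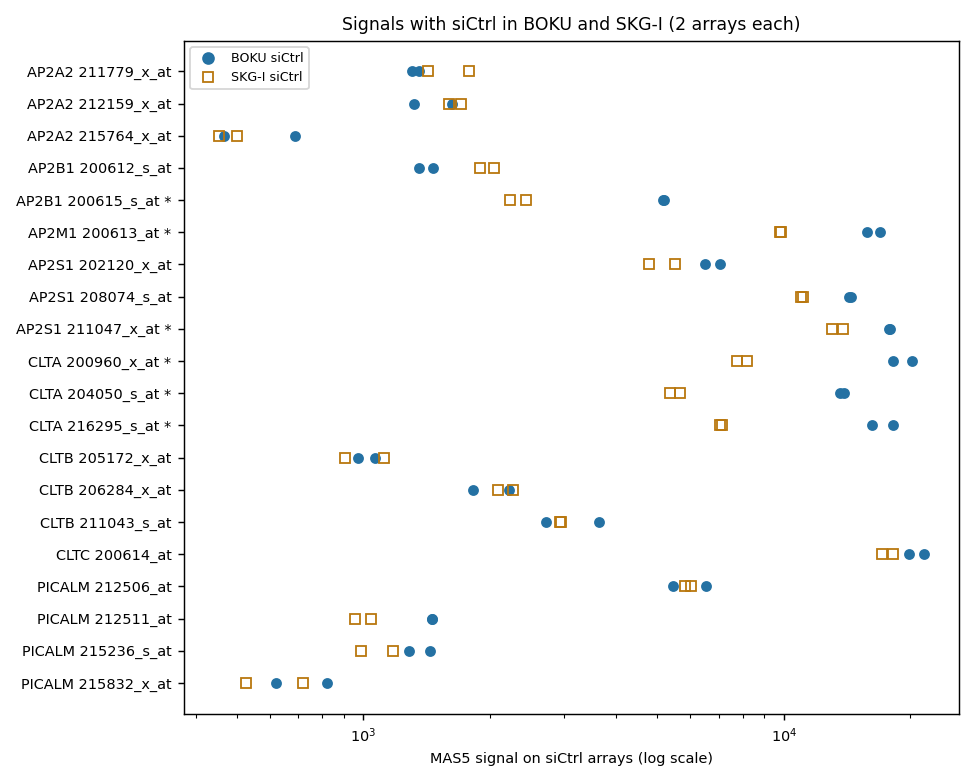
MAS5 signals (log axis) of the 20 measured probe sets on the 2 BOKU siCtrl arrays (filled circles) and the 2 SKG-I siCtrl arrays (open squares), with a star at the 6 probe sets higher in BOKU by the line coefficient at an adjusted p under 0.05. The CLTA probe sets lie 2.41-fold to 2.50-fold apart, and the AP2B1 probe sets point in opposite directions.

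The rest of the endocytic machinery was looked at by the same test. Of 64 other genes of clathrin-mediated endocytosis (membrane benders, dynamins, uncoating factors, phosphoinositide enzymes and cargo adaptors), 40 were measured. Of these 40 genes 0 fell and 1 rose by limma, and before adjustment 5 were lower and 6 higher at a p under 0.05. By their 80 measured probe sets, 16 were lower and 12 higher at that unadjusted limit. Of all 16517 probe sets, 4453 passed that unadjusted limit, in either direction. The median change of the 40 genes was 0.15 in BOKU and −0.03 in SKG-I.

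The gene that rose was FNBP1, an F-BAR protein that bends membranes and promotes actin assembly. Its probe set 212288_at had 1621 and 1583 in BOKU with siIGF2R and 670 and 763 with siCtrl, and 2286 and 2426 in SKG-I with siIGF2R and 1247 and 1196 with siCtrl. The log2 change was 1.06 (SE 0.20, adjusted p = 0.0488 from limma), close to the threshold and past it in 12 of 21 alternative settings. Its other measured probe sets were at 0.86 and 0.14 without passing (adjusted p = 0.115 and 0.745).

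The adaptors of the Golgi apparatus and endosomes, AP-1, AP-3 and the GGA proteins, act at other sites than AP-2. Of their 18 genes 15 were measured, and 0 fell and 0 rose by limma, while before adjustment 1 was lower and 1 higher at a p under 0.05. By their 30 measured probe sets, 2 were lower and 3 higher before adjustment. The medians over the 15 genes were 0.05 in BOKU and 0.03 in SKG-I. AP1B1, the AP-1 subunit most like AP2B1 in sequence, had 665 and 742 in BOKU with siIGF2R and 584 and 622 with siCtrl, and 644 and 598 in SKG-I with siIGF2R and 569 and 637 with siCtrl. Its differences were 0.22 and 0.04 (adjusted p = 0.735 from limma), and it was named for its likeness to AP2B1 and not by the rule for other genes. Of 12 receptors that enter through clathrin other than IGF2R, 8 were measured, and 0 fell and 0 rose by limma (1 lower and 1 higher before adjustment). By their 17 measured probe sets, 2 were lower and 2 higher before adjustment. The medians over the 8 receptor genes were 0.11 in BOKU and −0.07 in SKG-I. The background of the unadjusted probe-set counts of both groups was again 4453 of all 16517 probe sets, in either direction.

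**Figure D4:**
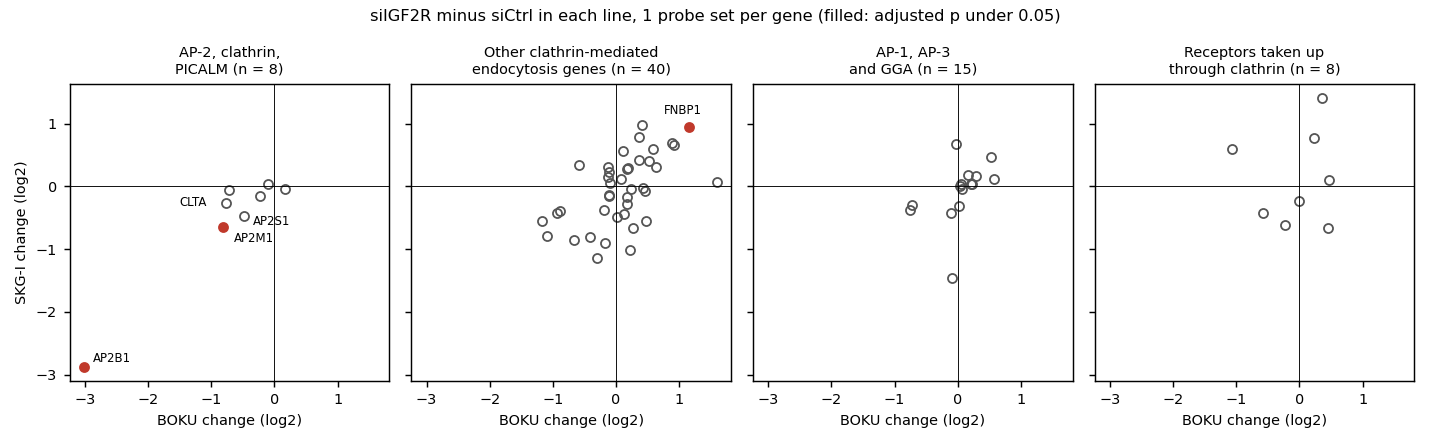
Change in BOKU (x axis) and SKG-I (y axis), siIGF2R minus siCtrl on the log2 scale, with 1 point per gene (its brightest probe set on average) in 4 panels, one for each group of genes. Filled red points passed limma at an adjusted p under 0.05: AP2B1 at −3.01 and −2.88, AP2M1 at −0.82 and −0.65, and FNBP1 at 1.16 and 0.95.

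The genes whose pattern over the 4 RNA samples came nearest to that of AP2B1 (200615_s_at) were sought among 8960 other genes, by the Euclidean distance between mean-centred log2 signals. The nearest were IGF2BP1 and AKR1B10, both at 0.73, with IGF2R at 0.76, DRC9 at 0.87 and OSBPL10 at 0.88, where the median distance was 3.31. AP2B1's own second probe set was at 1.64. These distances lie too close together to rank IGF2R against the others. IGF2BP1, an RNA-binding protein, had signals of 12.8 to 51.9 on the siIGF2R arrays, well below 500, and its change did not pass (adjusted p = 0.0538 from limma). With siCtrl it had 412 and 522 in BOKU and 241 and 242 in SKG-I. DRC9 had 60.6 to 91.7 with siIGF2R, and with siCtrl 466 and 572 in BOKU and 340 and 393 in SKG-I. Both genes thus entered this search through BOKU siCtrl array 2 alone, where they were highest. OSBPL10, an oxysterol-binding protein relative, had 981 and 843 in BOKU with siIGF2R and 5874 and 5415 with siCtrl, and 408 and 500 in SKG-I with siIGF2R and 1587 and 1567 with siCtrl (adjusted p = 0.0231). This likeness was measured over 4 samples and uses the same siRNA contrast as the changes above.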

How the data were processed

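Biotinylated RNA was hybridised to Affymetrix U133 Plus 2.0 arrays, 2 for each of 4 RNA samples (2 lines, 2 siRNAs). The deposited table holds 54675 probe sets with 1 intensity each, a MAS5 signal on a linear scale, which the authors made from the scans by background subtraction, summary over probes and scaling. After removal of 2% at each end the mean was 500 on every array. The methods name another mean, which was tried as an alternative. The legend of the study's heat map gives the duplicate arrays as the same RNA, so their log2 signals were averaged. The 62 control probe sets and probe sets under 500 on all arrays were left out, which kept 30.2%. Names came from the platform annotation: 14544 of the kept probe sets had 1 gene, 765 several and 1208 none, and 14541 of the 14544 matched RefSeq.

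Tests were run with limma 3.58.1 in R 4.3.3, with line and siRNA as terms, a variance trend with signal, two-sided tests and Benjamini-Hochberg adjustment at 0.05. The residual degrees of freedom were 1, with 4.82 more from the prior. The p values rest on 2 lines with 1 culture per siRNA each, and the small number of samples limits their precision. The script was tested on data simulated under the model's own assumptions, which checks the code and not the calls.

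Named are all 10 coat genes by every measured probe set, IGF2R, up to 6 called genes of each other list and the 5 nearest to AP2B1. The members and lists were chosen with earlier results of these data known. Medians and gene counts took 1 probe set per gene, the brightest on average. Alternatives covered the filter (250, none), normalization (quantile, median, a mean of 1000), a floor (100), a constant (64) added to every signal, arithmetic means of duplicates, the variance trend, the blocks, the methods' own test, each array left out, subtraction of the median of each of 10 signal classes and removal of _x_at probe sets. Start windows came from a RefSeq table on GRCh38.p14. No protein sequences and no whole genome were used here.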

Additional observations from a re-analysis of the deposited data

How the results depend on the processing

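The number of coat probe sets that fell, 3 as reported, was 2 to 3 when each array was left out in turn. It was 0 without a variance trend, where limma called 0 of all probe sets (3865 at an unadjusted p under 0.05, 4 of them coat probe sets that were lower), and 0 without a block for the cell line (625 and 2). With arrays as separate samples it was 10, since AP2S1, CLTA and PICALM 212511_at then passed, and 11 with the replicate block added, when CLTC passed too. Of all 16517 probe sets, 3833 and 3220 fell in these fits. Such fits take duplicate arrays of 1 RNA as independent. The label's replicate numbers showed little pairing of the samples: the correlations of their deviations were −0.01 to 0.13. The highest was between BOKU siIGF2R and BOKU siCtrl. The methods' unpaired test with the 2-fold rule gave 2 unadjusted and 1 adjusted on the arrays within each line, and on the 4 RNA samples 1 unadjusted and 0 adjusted. Over all probe sets these counts were 329, 105, 163 and 0. Both AP2B1 probe sets passed limma in 19 of 21 alternatives, all except no variance trend (adjusted p = 0.102) and no cell-line block (1), with estimates of −3.11 to −2.77 and −2.18 to −1.92. AP2M1 passed in 12 of 21, its adjusted p values ranged up to 1, and its estimate was −0.84 to −0.61. No coat probe set rose in any alternative. With median scaling, 545 of all probe sets fell and 321 rose, against 346 and 363 as reported.

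The median of the 8 genes in BOKU, −0.60, was −0.45 after quantile normalization and −0.68 to −0.50 with an array left out. In SKG-I the median of −0.21 was −0.36 without a filter, −0.26 with a filter at 250, −0.12 after quantile normalization, −0.31 with median scaling, −0.25 with the mean over a gene's probe sets and −0.22 to −0.19 with an array left out. Among settings chosen after seeing the data, it was −0.12 with signal classes centred, −0.16 with arrays scaled to a mean of 1000 and −0.26 without _x_at probe sets. With arrays as separate samples, 10 probe sets were higher in BOKU than in SKG-I and 1 was lower, where 6 and 0 were reported, and leaving out an array gave 5 to 6 higher. For these alternatives the line counts over all probe sets were not taken. Where causes are not named here, the cause was not tested. The medians kept their direction in all of these settings. Of the probe sets that did not pass, AP2A2 212159_x_at (0.06), AP2A2 215764_x_at (0.09) and PICALM 212506_at (−0.03) changed sign in some of them, reaching −0.05, −0.05 and 0.07. PICALM 215832_x_at, at 0.00 as reported, ranged from −0.11 to 0.11. Over all probe sets the calls moved with single BOKU arrays: without BOKU siCtrl array 1 there were 759 lower and 838 higher, and without BOKU siCtrl array 2 there were 233 and 216, against 346 and 363 as reported. Signals under 500, as for AP2A1 and EPN1, leave those genes with values and no call.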
